A study of Homo sapiens with 10 samples.

Results

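The insulin-like growth factor (IGF) binding protein family was read across 10 RNA sequencing libraries of the established human lung cancer lines H460 and A549. The 10 genes were taken by symbol alone from the 46427 genes of the table. They were the binding proteins IGFBP1 to IGFBP7, the ligand gene IGF2, and the receptor genes IGF1R and IGF2R. The family was picked with earlier results of these libraries known, so its values describe these libraries and are no independent support for a direction. IGFBP7 was already known to be low in sphere culture, and there its values are given without a test.

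The study asked which genes change in common when lung cancer cells survive a drug and when they grow as tumor spheroid (TS) cells. H460 was represented by 3 libraries of untreated parental cells grown as a layer (2D), 1 of cisplatin-resistant (CR) cells, 2 of paclitaxel-resistant (PR) cells, 1 of doxorubicin-resistant (DR) cells and 1 of TS cells. A549 was represented by 1 library of untreated 2D cells and 1 of TS cells. The drug-resistant cells were those left alive after cisplatin at 4 µM, paclitaxel at 5 nM or doxorubicin at 0.5 µM, given for 3 days and followed by 3 days in fresh medium. They are survivors of a single short exposure of 1 line and not lines selected over a long time. The TS cells, labelled CTC, had been passaged as floating spheres on coated plates in serum-free medium with B27, basic FGF and EGF, whereas 2D cells grew with fetal bovine serum. Sphere growth and the change of medium therefore cannot be told apart. Nothing in the labels says that libraries of a group came from separate cultures, so the p-values measure the spread between these libraries, which may be technical.

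Between 59499787 and 89541774 reads were counted on genes per library. Levels are given as FPKM, fragment counts scaled to transcript length and library size, which can be set side by side between genes because they are per length. Differences are given as log2 fold changes from the quasi-likelihood test of edgeR on the read counts, with their standard error (SE), and a gene was called when its p-value, adjusted by Benjamini-Hochberg over all genes tested, was under 0.05. The summed FPKM of 6 epithelial markers was between 718 and 1629 in H460, carried by the keratin genes KRT8, KRT18 and KRT19, and was 4021 and 7549 in A549, carried by KRT8, KRT18 and KRT7. The surface marker EPCAM was at most 0.114 in H460, and CDH1 (E-cadherin) did not exceed 14 reads in any H460 library. All 6 markers of differentiated lung epithelium were below an FPKM of 1 in each library. Of 9 leukocyte, endothelial and fibroblast markers, 7 were below 1 everywhere. The others were CD68, a lysosomal protein gene, and LUM, a matrix proteoglycan gene. CD68 was at 15.0 to 16.9 in parental, 30.7 to 57.9 in drug-resistant and 21.2 in H460 TS cells. LUM was at 0.237 to 2.76 in parental, 0.362 to 6.99 in drug-resistant and 26.6 in H460 TS cells. In the 2D and TS cells of A549, CD68 was at 19.6 and 69.8 and LUM at 0.0506 and 0.858. The part of CD68 and LUM in the values of the IGF genes was not tested.

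IGFs are small peptide hormones related to insulin that promote growth and survival through the receptor tyrosine kinase IGF1R. In serum and tissue most IGF is held by the 6 high-affinity binding proteins IGFBP1 to IGFBP6, which prolong its life, keep it from the receptor or deliver it there, and are themselves cleaved by proteases that release the ligand. IGFBP7 shares the N-terminal domain, binds IGF weakly and is a matrix-associated secreted protein known as a marker of senescent cells. IGF2R, the cation-independent mannose 6-phosphate receptor, carries no kinase. It takes up IGF2 for degradation and sorts lysosomal enzymes.

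On GRCh38 with the genes of GENCODE 29, the family included 2 neighbouring pairs. IGFBP1 (NCBI Gene 3484, chromosome 7, 45888357 to 45893668, + strand) lies next to IGFBP3 (3486, chromosome 7, 45912245 to 45921874, - strand). IGFBP2 (3485, chromosome 2, 216632828 to 216664436, + strand) lies next to IGFBP5 (3488, chromosome 2, 216672105 to 216695525, - strand). The other binding proteins were IGFBP4 (3487, chromosome 17, 40443461 to 40457731, + strand), IGFBP6 (3489, chromosome 12, 53097436 to 53102345, + strand) and IGFBP7 (3490, chromosome 4, 57030773 to 57110385, - strand). IGF2 (3481) lies on chromosome 11 from 2129112 to 2158658 on the - strand, IGF1R (3480) on chromosome 15 from 98648539 to 98964530 on the + strand, and IGF2R (3482) on chromosome 6 from 159969099 to 160113507 on the + strand.

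Promoters of 7 of the 10 genes were matched in RefSeq (GRCh38.p14), and IGFBP1, IGFBP7 and IGF2 were not matched. Shown are the 250 bases before the RefSeq start of IGFBP4, the member that varied most, of IGFBP5, which was near or at 0 in 9 libraries, and of IGF1R, the signalling receptor. Each is written 5′ to 3′ on the strand of its gene and capitals mark 3 motifs on either strand. They are the TATA box, spelled TATAAA, the GC box, spelled GGGCGG, and the core of hypoxia response elements, spelled ACGTG. The windows are chr17:40443200-40443449 (+ strand) for IGFBP4, chr2:216695550-216695799 (- strand) for IGFBP5 and chr15:98648289-98648538 (+ strand) for IGF1R.
IGFBP4: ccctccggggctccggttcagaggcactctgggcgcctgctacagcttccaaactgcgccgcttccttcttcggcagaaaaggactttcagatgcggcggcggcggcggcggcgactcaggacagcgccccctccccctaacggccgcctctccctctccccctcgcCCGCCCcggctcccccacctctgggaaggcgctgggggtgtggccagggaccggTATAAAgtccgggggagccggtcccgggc
IGFBP5: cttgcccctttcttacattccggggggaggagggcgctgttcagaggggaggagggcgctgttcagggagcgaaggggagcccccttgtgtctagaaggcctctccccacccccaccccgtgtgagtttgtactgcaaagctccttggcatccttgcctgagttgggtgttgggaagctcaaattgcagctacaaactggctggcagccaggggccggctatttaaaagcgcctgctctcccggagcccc
IGF1R: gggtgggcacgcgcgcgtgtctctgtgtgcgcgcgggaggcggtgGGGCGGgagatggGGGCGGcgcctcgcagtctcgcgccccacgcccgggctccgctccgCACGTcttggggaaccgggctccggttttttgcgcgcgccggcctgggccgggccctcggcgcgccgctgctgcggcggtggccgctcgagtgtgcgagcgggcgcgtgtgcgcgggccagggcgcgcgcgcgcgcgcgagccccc
IGFBP4 held TATAAA 29 bases and GGGCGG 83 bases before its start. IGF1R held GGGCGG at 205 and 192 bases and ACGTG at 146 bases before its start, and none of the 3 motifs was in the IGFBP5 window. Of 35116 RefSeq promoter windows of that length, 10.7% held TATAAA, 42.6% held GGGCGG and 18.5% held ACGTG. The G and C content was 71.6% for IGFBP4, 61.2% for IGFBP5 and 81.2% for IGF1R. These matches describe letters only, and no binding was measured.

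The binding proteins differed in level over several orders of magnitude, and IGFBP3 led in each H460 library. In parental cells the order was IGFBP3, IGFBP2, then IGFBP6 and IGFBP7, then IGFBP4, IGFBP1 and IGFBP5. IGFBP6 and IGFBP7 changed places between parental libraries and did not differ beyond their spread, with an FPKM of 14.0 ± 3.75 and 14.6 ± 0.171 (SD, n = 3). The summed FPKM of IGFBP1 to IGFBP7 was 148, 543 and 551 in the parental libraries. It was 1891 in CR, 1829 and 1848 in PR and 1328 in DR cells, and the parental and drug-resistant libraries did not overlap. IGFBP3 made up 53.8% to 87.1% of the sum in parental and 77.7% to 87.0% in drug-resistant libraries. The difference in the sum therefore mostly repeats that of IGFBP3. The sum was 1111 in H460 TS cells, and it was 1364 and 1926 in the 2D and TS cells of A549.

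**Figure D1:**
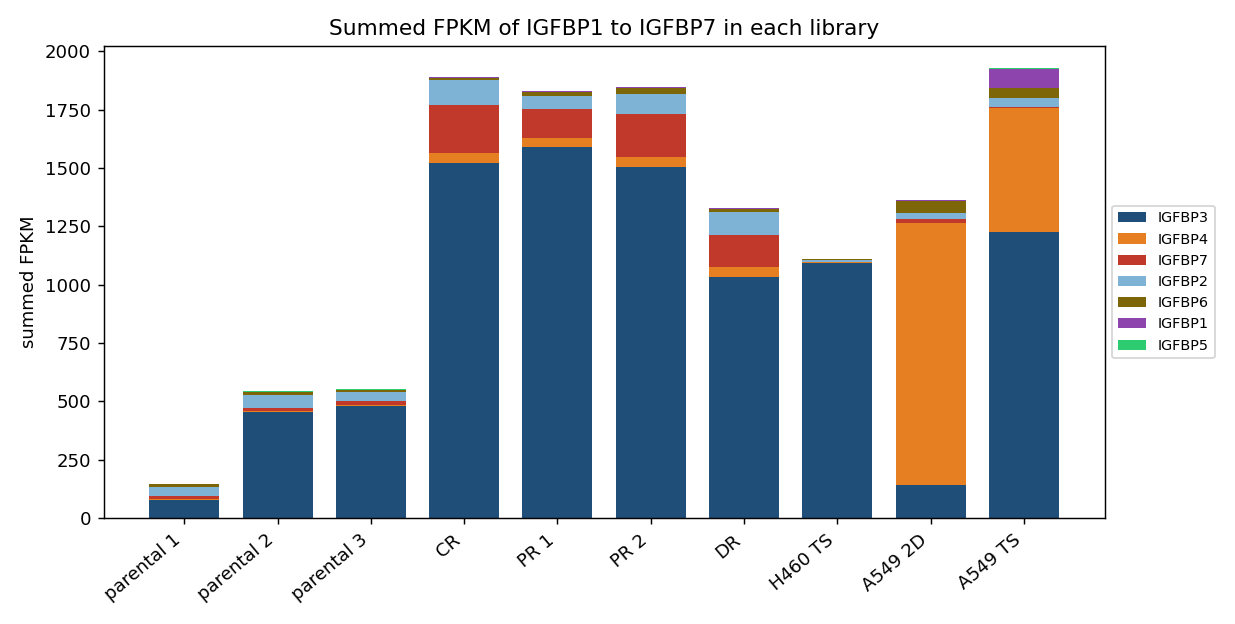
Summed FPKM of IGFBP1 to IGFBP7 (vertical axis) in each of the 10 libraries (horizontal axis), with 1 colour per gene. IGFBP3 makes up 53.8% to 87.1% of the parental bars and 98.3% of the H460 TS bar, and IGFBP4 makes up 82.2% of the A549 2D bar.

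The composition of that sum differed between states of the same line. In the drug-resistant libraries IGFBP7 took the second place, with 6.59% to 10.8% of the summed FPKM, ahead of IGFBP2, which held the second place in the parental libraries. In H460 TS cells IGFBP3 alone made up 98.3%, and in A549 2D cells IGFBP4 made up 82.2% against 10.5% for IGFBP3. A549 TS cells had 63.6% IGFBP3 and 27.6% IGFBP4. Among all genes IGFBP3 ranked between 124 and 790 by FPKM in the parental libraries and between 29 and 58 in the drug-resistant ones.

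**Figure D2:**
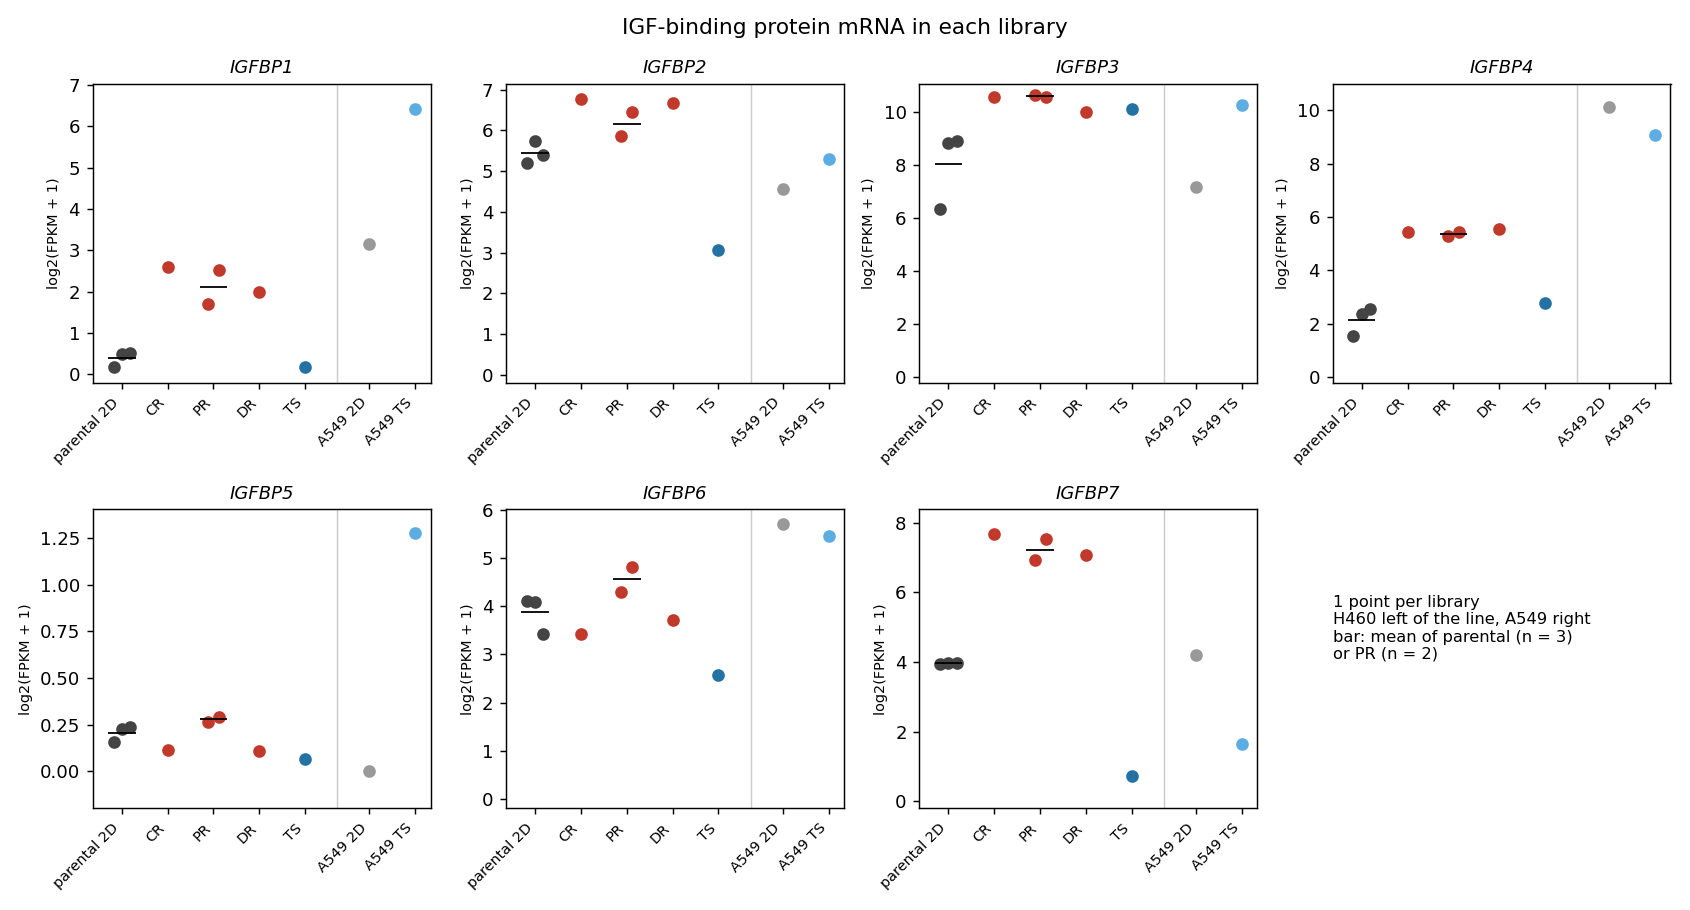
log2(FPKM + 1) of each binding protein gene (vertical axes, own scale per panel) in each library, 1 point per library, H460 left of the grey line and A549 right of it, with bars at the mean of 3 parental or 2 PR libraries. IGFBP1, IGFBP2, IGFBP3, IGFBP4 and IGFBP7 lie higher in the 4 drug-resistant (red) than in the 3 parental (dark grey) libraries, while IGFBP7 is near the bottom in both TS (blue) libraries. How many of all genes separate parental from drug-resistant libraries fully was not counted. Of 18398 genes tested between these groups, 33.8% were called.

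Drug-resistant H460 cells were first compared with parental cells, with the 4 survivor libraries as 1 group, so that the spread includes differences between drugs. IGFBP1, IGFBP2, IGFBP3, IGFBP4, IGFBP7 and IGF2 were higher in drug-resistant cells, none of the 10 genes was lower, and IGFBP5, IGFBP6, IGF1R and IGF2R were not called. All 10 genes passed the filter on low counts. Among 18398 genes tested, 33.8% were called, 18.5% higher and 15.3% lower. The median log2 fold change was 1.45 over the 10 genes and 0.06 over all genes tested. With upper-quartile in place of TMM scaling the median of all genes rose to 0.23 and the share of calls that were higher rose from 54.6% to 67.4%, while the 6 genes called remained those 6. CR and DR cells had 1 library each and share the parental controls with PR cells.

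IGFBP4, a secreted binding protein that mostly restrains IGF, had an FPKM of 1.91, 4.22 and 4.95 in the parental libraries, 42.8 in CR, 38.3 and 42.9 in PR and 45.4 in DR cells. The drug-resistant libraries lay close together and far above the parental ones. The fold change was 3.40 on the log2 scale (SE 0.33, adjusted p = 0.000196, edgeR).

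IGFBP7 had an FPKM of 14.4, 14.7 and 14.6 in parental cells, 204 in CR, 121 and 182 in PR and 134 in DR cells. The parental libraries differed by an SD of only 0.171, and the lowest survivor library, PR replicate 1, was far above them. Its log2 fold change was 3.35 (SE 0.26, adjusted p = 9.4e-05, edgeR). IGFBP7-AS1, which overlaps the 5′ end of IGFBP7 on the other strand, did not exceed 27 reads in any library.

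IGFBP1, an inducible binding protein of liver and other epithelia that responds to starvation and stress, was low in parental cells, at an FPKM of 0.127, 0.403 and 0.438. It was 5.03 in CR, 2.23 and 4.72 in PR and 2.95 in DR cells, without overlap. Its log2 fold change was 3.39 (SE 0.49, adjusted p = 0.000865, edgeR), on 17 to 60 reads in parental and 285 to 681 in drug-resistant libraries.

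IGFBP3, the main IGF carrier of serum, had an FPKM of 79.9, 455 and 480.3 in parental cells, 1521 in CR, 1592 and 1505 in PR and 1032 in DR cells. Parental replicate 1 was far below the other parental libraries, and the drug-resistant libraries lay above all of them. The log2 fold change was 1.94 (SE 0.51, adjusted p = 0.0155, edgeR) and stood at 1.45 without that library, still called. IGFBP2, which binds IGF2 with preference, had an FPKM of 35.7, 52.3 and 41.0 in parental cells, 109 in CR, 57.6 and 86.5 in PR and 102 in DR cells. Its lowest drug-resistant library, PR replicate 1, was only slightly above its highest parental one. The log2 fold change was 0.95 (SE 0.26, adjusted p = 0.0192, edgeR), and without parental replicate 1 it was 0.80 and not called (adjusted p = 0.0792, edgeR).

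IGFBP6, which also prefers IGF2, overlapped between the groups, at an FPKM of 16.3, 16.0 and 9.67 in parental cells, 9.71 in CR, 18.7 and 27.1 in PR and 12.1 in DR cells. Its log2 fold change was 0.14 (SE 0.30, adjusted p = 0.75, edgeR) and its sign depended on single libraries. IGFBP5, a binding protein of bone, muscle and mammary tissue, had at most 106 reads in any H460 library, with an FPKM of 0.115, 0.171 and 0.177 in parental and between 0.0765 and 0.226 in drug-resistant cells. Its log2 fold change was -0.23 (SE 0.43, adjusted p = 0.706, edgeR).

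**Figure D3:**
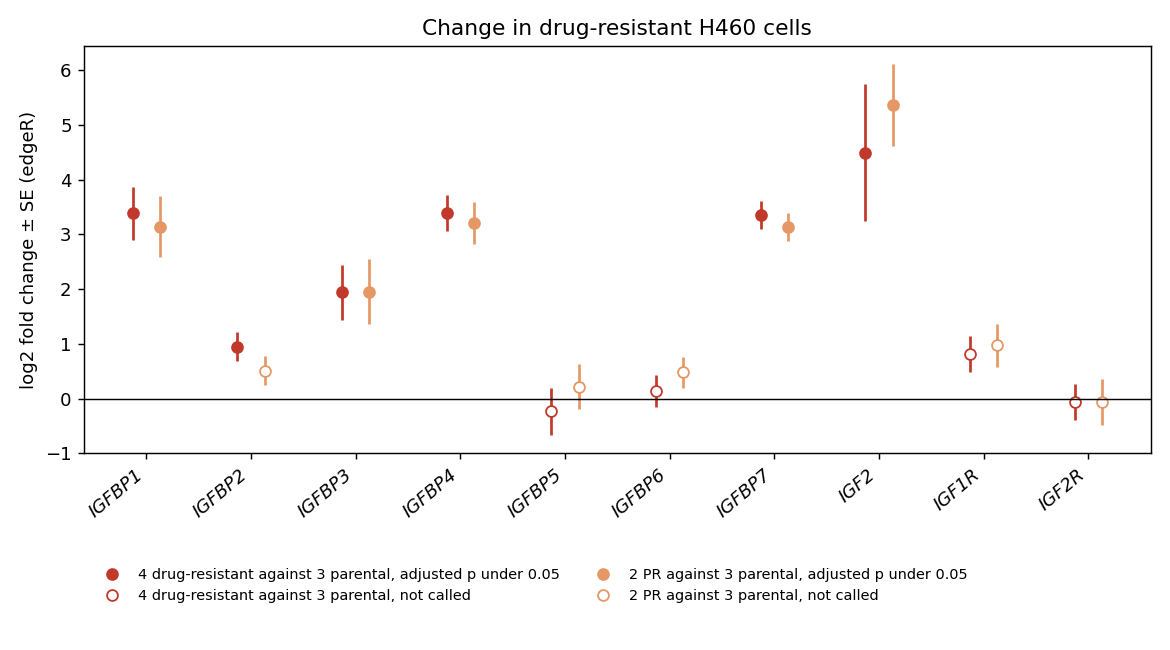
log2 fold change ± SE from edgeR (vertical axis) of the 10 genes (horizontal axis) in the 4 drug-resistant libraries against 3 parental ones (dark) and in the 2 PR libraries alone against the same 3 (light), with filled points for an adjusted p under 0.05. IGFBP1, IGFBP4 and IGFBP7 lie between 3.13 and 3.40 in both, and IGFBP5, IGFBP6, IGF1R and IGF2R are open in both.

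IGF2, the ligand, was at the limit of detection in most H460 libraries. It had 4, 0 and 6 reads in the parental libraries, 10 in CR and 14 in DR, but 183 and 124 in the PR libraries. The PR libraries stood apart from all other H460 libraries, at an FPKM of 0.436 and 0.331. The log2 fold change of the pooled drug-resistant group, 4.50 (SE 1.25, adjusted p = 0.0197, edgeR), therefore averages unlike libraries. It was 4.62 without parental replicate 1 (adjusted p = 0.0689) and 3.93 without parental replicate 2 (adjusted p = 0.074, edgeR), neither called, and IGF2 fell below the filter on counts when PR replicate 1, PR replicate 2 or DR was left out. The readthrough gene INS-IGF2 had 0 reads in each library and the antisense gene IGF2-AS at most 13.

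The receptors were expressed throughout. IGF1R had an FPKM of 5.54, 6.74 and 13.9 in parental cells, 14.3 in CR, 21.1 and 19.5 in PR and 13.2 in DR cells. Parental replicate 3 lay within the range of the drug-resistant libraries and the other parental libraries lay below it. The log2 fold change was 0.82 (SE 0.33, adjusted p = 0.0761, edgeR), which was not called, but it was called with DESeq2 (0.82, adjusted p = 0.0344), with limma (0.96, adjusted p = 0.0192) and without parental replicate 3 (1.36, adjusted p = 0.00364, edgeR). IGF2R had an FPKM of 33.9, 23.1 and 64.3 in parental cells, 36.4 in CR, 46.9 and 45.7 in PR and 43.1 in DR cells. All its drug-resistant values lay inside the parental range, with a log2 fold change of -0.06 (SE 0.33, adjusted p = 0.901, edgeR) whose sign changed with the scaling.

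**Figure D4:**
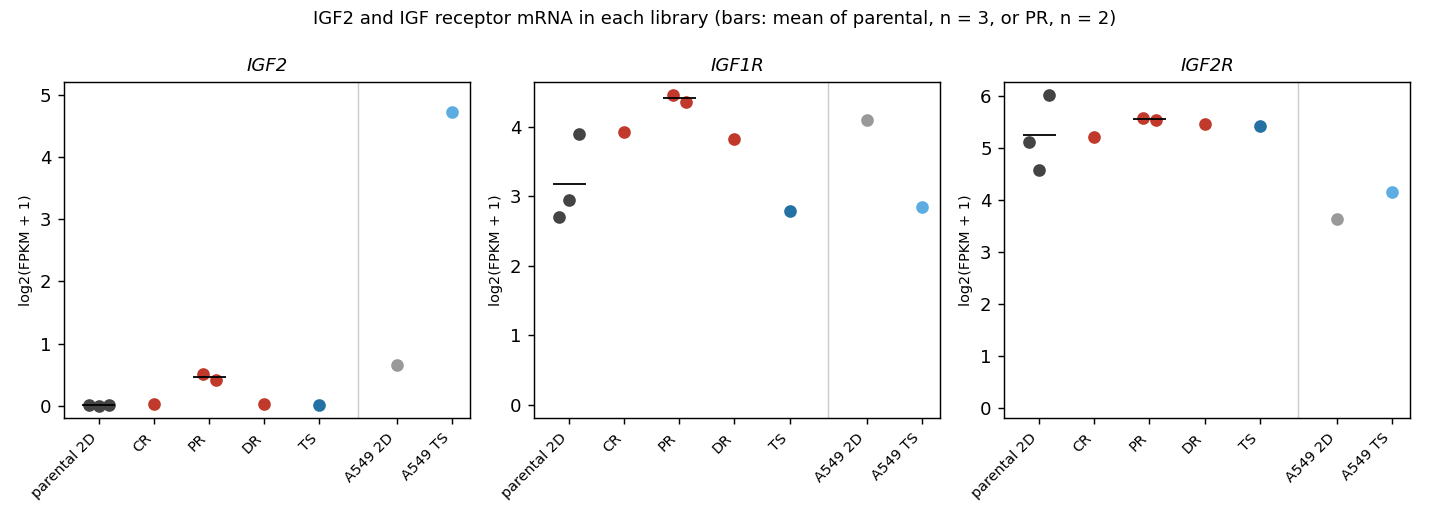
log2(FPKM + 1) of IGF2, IGF1R and IGF2R (vertical axes, own scale per panel) in each library, 1 point per library, H460 left of the grey line and A549 right of it, with bars at the mean of 3 parental or 2 PR libraries. IGF2 stands out in A549 TS at an FPKM of 25.4, and IGF1R and IGF2R vary within a few-fold.

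The 2 PR libraries were also compared alone with the same parental libraries, as the 1 drug with a replicate. IGFBP1, IGFBP3, IGFBP4, IGFBP7 and IGF2 were higher and none of the 10 genes was lower, where 28.1% of 19430 genes tested were called, 17.5% higher and 10.6% lower. The log2 fold change was 3.21 for IGFBP4 (SE 0.38, adjusted p = 0.0016), 3.13 for IGFBP7 (SE 0.25, adjusted p = 0.000567) and 5.36 for IGF2 (SE 0.75, adjusted p = 0.00242, edgeR). Those calls held without any 1 library. IGFBP1 was higher by 3.14 (SE 0.55, adjusted p = 0.00493, edgeR) but was not called without PR replicate 2 (2.55, adjusted p = 0.0675, edgeR). IGFBP3 was higher by 1.96 (SE 0.60, adjusted p = 0.0378, edgeR) and was not called without parental replicate 2, PR replicate 1 or PR replicate 2 (adjusted p = 0.0873, 0.128 and 0.137, edgeR). IGFBP2 was at 0.51 (SE 0.26, adjusted p = 0.173, edgeR) and IGF1R at 0.97 (SE 0.40, adjusted p = 0.0972, edgeR), neither called. Without parental replicate 3 IGF1R was at 1.55 and called (adjusted p = 0.00627, edgeR). With upper-quartile scaling the median of all genes moved from 0.05 to 0.30, the share of higher calls rose from 62.2% to 75.9% and IGF1R was called (1.19, adjusted p = 0.0484, edgeR).

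Drug by drug, the study's cut-off of 2-fold was applied to log2(FPKM + 1) against the mean of the parental libraries, a scale that understates the change of low genes. CR and DR cells each had IGFBP1, IGFBP2, IGFBP3, IGFBP4 and IGFBP7 past that cut-off, and PR cells had IGFBP1, IGFBP3, IGFBP4, IGFBP7 and IGF1R. In each, 5 of the 10 genes were higher and 0 lower, and 8 of the 10 reached an FPKM of 1 in case or control. Over all genes that reached it, 5.99% were higher and 7.24% lower by the cut-off for CR cells, 7.9% and 5.82% for PR cells, and 5.9% and 5.82% for DR cells. On that scale IGFBP7 differed by 3.72, 3.26 and 3.11 and IGFBP4 by 3.29, 3.21 and 3.37 for CR, PR and DR cells. IGFBP2 differed by 1.34, 0.72 and 1.24 in the same order, so that PR cells had the smallest difference of the drugs. CR and DR have no replicate, so differences between drugs were not tested.

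The library names came in a plain and a hyphenated form that cut across the groups, with parental replicate 2, CR, PR replicate 2 and DR hyphenated and the others plain. PR replicate 1 was the only drug-resistant library in the plain form, and its name alone also ended in exp. What the form and that ending mark is not given in the sources used here. Within the plain form, PR replicate 1 exceeded the mean of parental replicates 1 and 3 by 3.24 for IGFBP4, 2.97 for IGFBP7, 3.01 for IGFBP3, 1.34 for IGFBP1 and 0.58 for IGFBP2 on log2(FPKM + 1). Within the hyphenated form, the other drug-resistant libraries exceeded parental replicate 2 by 3.10, 3.45, 1.55, 1.88 and 0.90 on average for the same genes in that order. These 5 genes were thus higher within either form, while IGFBP6 was at 0.54 in the plain and -0.11 in the hyphenated form.

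Proliferation genes moved with the same libraries. All 8 proliferation markers fell in drug-resistant cells, MKI67 by 3.70 and TOP2A by 3.99 on the log2 scale (SE 0.67 and 0.66), and their summed FPKM was 411 to 666 in parental, 25.8 to 102 in drug-resistant and 534 in H460 TS cells. In A549 it was 511 in 2D and 271 in TS cells. Their part in the levels of the binding proteins was not tested. In these bulk libraries a change in the share of cells that express a gene and a change in RNA per cell cannot be told apart.

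TS cells were next compared with 2D cells of both lines together, with the line as a covariate and 1 TS library per line. Of the 9 members tested, none was called, where 0.191% of 18372 genes were called, 0.147% higher and 0.0435% lower. At an unadjusted p under 0.05 there were 3 of these 9 genes and 1363 of all genes, and 1 of the 9, IGFBP3, was called by DESeq2 (adjusted p = 0.04998) and none by limma. The test had few libraries, and the values of each line are therefore given as descriptions.

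IGFBP7 was low in TS cells of both lines. Its FPKM was 0.644 in H460 TS against 14.4 to 14.7 in the parental libraries, on 65 reads, and 2.11 in A549 TS against 17.4 in A549 2D cells. The H460 control mean was 22.6-fold the TS level and the A549 control 8.22-fold. IGFBP7 was thus at its highest in drug-resistant and at its lowest in TS cells of the same line, with a range from 0.644 to 204.

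IGFBP3 was high in TS cells of both lines. Its FPKM was 1092 in H460 TS against 79.9 to 480.3 in parental cells, and 1226 in A549 TS against 144 in A549 2D cells. The log2 fold change over both lines was 2.30 (SE 0.75, adjusted p = 0.44, edgeR), not called. H460 TS cells were thus at the level of DR cells for IGFBP3 while IGFBP4, at 5.90, stayed near the highest parental value of 4.95.

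The other binding proteins did not move alike in the lines. IGFBP2 was 7.34 in H460 TS, below each parental library, and 38.5 in A549 TS against 22.4 in 2D cells. IGFBP1 was 0.124 in H460 TS, as low as the lowest parental library, and 83.8 in A549 TS against 7.97 in 2D cells. IGFBP4 was 532 in A549 TS against 1122 in 2D cells. IGFBP6 was lower in H460 TS, at 4.96, and was 43.2 in A549 TS against 51.0 in 2D cells, with a log2 fold change over both lines of -0.93 (SE 0.39, adjusted p = 0.671, edgeR).

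**Figure D5:**
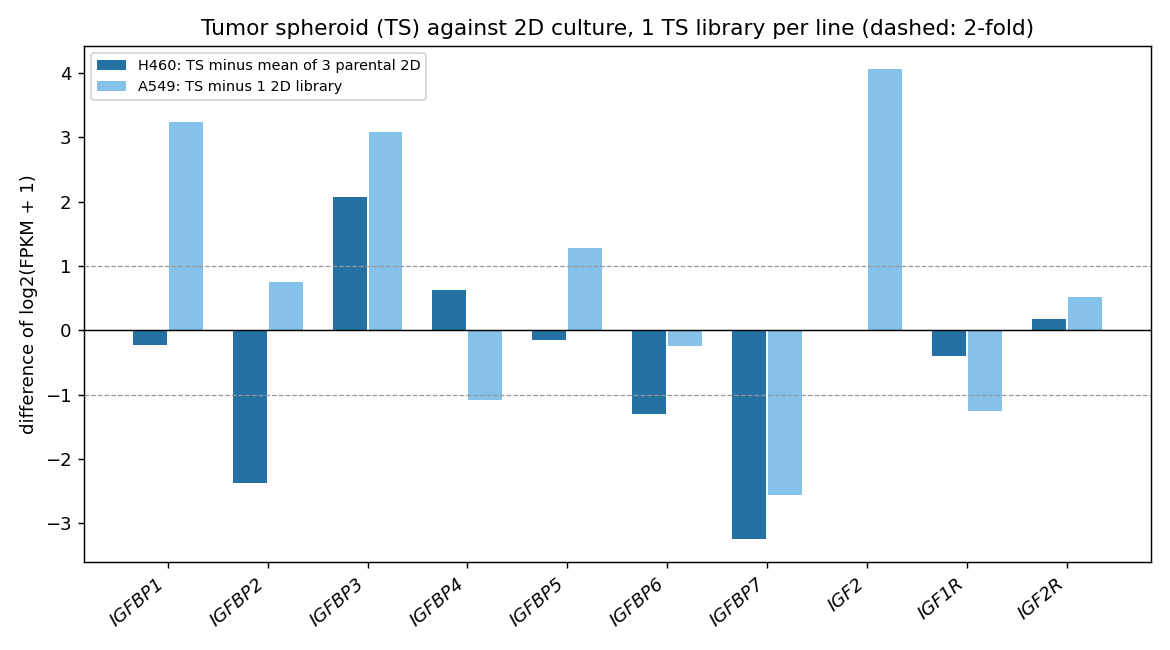
Difference of log2(FPKM + 1) between TS and 2D cells (vertical axis) for the 10 genes (horizontal axis) in H460 (dark, 1 TS library minus the mean of 3 parental) and A549 (light, 1 library minus 1), with dashed lines at 2-fold. IGFBP3 is up (2.07 and 3.09) and IGFBP7 down (-3.24 and -2.56) in both lines, and IGFBP2 points down in H460 (-2.38) and up in A549 (0.76).

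IGFBP5 was detected with 0 reads among 64454873 in A549 2D cells and with 723 reads in A549 TS cells, an FPKM of 1.42. With 3 reads as the upper limit that a count of 0 allows, the share of reads was at least 222-fold higher in TS cells. This is a bound for counting error only and takes each count as 1 independent read, which may not hold for these counts. IGF2 had 221 reads in 2D and 10407 in TS cells of A549, an FPKM of 0.587 and 25.4, while H460 TS cells had 3 reads. IGF1R was 6.16 in A549 TS against 16.1 in 2D cells and 5.88 in H460 TS cells, within the parental range of 5.54 to 13.9. IGF2R was 16.8 in A549 TS against 11.4 in 2D cells and 41.8 in H460 TS cells.

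By the 2-fold cut-off on log2(FPKM + 1), and without IGFBP7, H460 TS cells had 1 of 9 genes higher (IGFBP3) and 2 lower (IGFBP2 and IGFBP6). A549 TS cells had 4 higher (IGFBP1, IGFBP3, IGFBP5 and IGF2) and 2 lower (IGFBP4 and IGF1R). Over all genes that reached an FPKM of 1 in case or control, as 6 of the 9 did in H460 and all 9 in A549, 1.99% were higher and 2.03% lower in H460 TS, and 6.7% higher and 3.02% lower in A549 TS cells.

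Whether the TS effect differed between the lines was tested as an interaction, whose residual spread came from the 3 parental libraries only. Of the 9 members tested, 1 was called, where 0.436% of 19941 genes were called, 0.341% in the direction of a greater rise in A549 and 0.0953% in the other. It was IGFBP5, with an adjusted p of 0.016 (edgeR), and its fitted interaction of 14.20 depends on the prior count because the A549 2D library was at 0. It was not called without the filter on low counts (adjusted p = 0.0871, edgeR) and was not tested by limma, whose filter it did not pass. IGFBP2 had an interaction of 3.36 (SE 0.59, adjusted p = 0.0675), IGFBP1 of 4.79 (SE 1.03, adjusted p = 0.116) and IGF2 of 5.44 (SE 1.32, adjusted p = 0.159, edgeR), none of them called. IGFBP1 and IGFBP2 were called with DESeq2 (adjusted p = 0.000146 and 6.87e-06) and without parental replicate 1 (adjusted p = 0.000764 and 0.00664, edgeR). IGF2 was called without parental replicate 1 (adjusted p = 0.0398) and without parental replicate 2 (adjusted p = 0.0198, edgeR).

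The lines themselves were compared in the additive fit with culture as a covariate. A549 cells were higher than H460 cells for IGFBP1, IGFBP4, IGFBP6 and IGF2, and lower for none of the 10 genes, where 23.9% of 18372 genes were called, 14.4% higher and 9.42% lower. IGFBP4 was higher by 7.59 (SE 0.57, adjusted p = 0.000399, edgeR), and its FPKM in A549 2D cells was 304-fold the parental mean of H460. IGFBP1 was higher by 6.47 (SE 1.11, adjusted p = 0.0077, edgeR), IGFBP6 by 2.39 (SE 0.36, adjusted p = 0.00497, edgeR) and IGF2 by 8.50 (SE 1.18, adjusted p = 0.00351, edgeR). These 4 calls held without any 1 library, but their size did not. Leaving out a library gave 6.51 (without A549 2D) to 8.21 (A549 TS) for IGFBP4, 4.55 (H460 TS) to 9.36 (A549 2D) for IGFBP1, 1.85 (H460 TS) to 3.14 (A549 2D) for IGFBP6 and 6.10 (H460 TS) to 11.55 (A549 2D) for IGF2.

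IGF2R was lower in both A549 libraries than in each H460 library, but was not called, with a log2 fold change of -1.64 (SE 0.52, adjusted p = 0.0595, edgeR). It was called with DESeq2 (adjusted p = 0.00789), with limma (adjusted p = 0.0297) and without parental replicate 3 (adjusted p = 0.0314, edgeR). IGF1R exceeded IGF2R only in A549 2D cells, where the ratio of their FPKM was 1.41. IGFBP5 had a fitted line effect of 0.01 (SE 4.85) that reflects libraries at 0 and carries no direction.

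The proteases that cleave binding proteins, and their regulators, were read next from a list of 12 genes. In drug-resistant cells 9 of the 12 were higher, 0 were lower and 3 were not called, beside 18.5% of all genes higher. The median log2 fold change was 2.04. STC1 and STC2, secreted stanniocalcins that inhibit the IGFBP4-cleaving protease PAPPA, were higher by 5.06 (SE 0.57, adjusted p = 0.000283) and 2.79 (SE 0.33, adjusted p = 0.000366, edgeR). STC1 had been picked out by the study because it was higher in all drug-resistant and TS cells. Its rise and p-value here repeat that choice and are no independent support, and it is among the 9 genes called. The FPKM of STC1 was 0.128, 0.838 and 0.483 in parental cells, 9.21 in CR, 21.5 and 21.8 in PR, 17.7 in DR and 11.1 in H460 TS cells. It was 3.27 and 22.6 in the 2D and TS cells of A549. Each drug-resistant and TS library lay above its 2D controls, as the choice by the study required.

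ADAM28, a metalloprotease reported to cleave IGFBP3, was higher by 2.48 on at most 32 reads in these libraries (SE 0.87, adjusted p = 0.0495, edgeR). PAPPA itself had an FPKM of 8.40, 13.2 and 42.4 in parental cells, 78.7 in CR, 77.1 and 73.1 in PR and 55.0 in DR cells, a log2 fold change of 1.59 (SE 0.50, adjusted p = 0.0323, edgeR). Its substrate IGFBP4 and its inhibitors STC1 and STC2 were thus higher in the same libraries. In PR cells alone 6 of the 12 were higher and 0 lower, where 17.5% of all genes were higher and 10.6% lower. Among the higher were STC1 (5.26), STC2 (2.90) and PLAU (2.38), the urokinase gene.

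In TS cells none of the 12 was called, where 0.191% of 18372 genes tested were called. Between the lines 2 of the 12 were higher in A549, among them PLAU by 2.03, and 2 were lower, PAPPA2 (-8.62 on the log2 scale) and STC2. Over all genes 14.4% were higher in A549 and 9.42% lower, so the count of this list is near the share of all genes. The gene of the IGFBP5-cleaving protease PAPPA2 had 1227 to 5749 reads in the H460 libraries and 16 and 5 in A549 2D and TS cells.

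Secreted relatives of the binding proteins, which share the N-terminal IGFBP domain, were listed as 9 genes, of which 8 were tested. In drug-resistant cells 4 were higher and 1 lower, with a median log2 fold change of 0.62, where 18.5% of all genes were higher and 15.3% lower. Higher were CCN3 by 3.17 (SE 0.45, adjusted p = 0.000796), CCN5 by 2.96 (SE 0.43, adjusted p = 0.000897), ESM1 by 1.72 (SE 0.36, adjusted p = 0.00509) and CCN1 by 1.18 (SE 0.33, adjusted p = 0.0217, edgeR). IGFBPL1 fell by 1.24 on the log2 scale (SE 0.29, adjusted p = 0.00883, edgeR), at an FPKM below 1 in those libraries. In PR cells CCN3, CCN5 and ESM1 were higher and IGFBPL1 lower, where 17.5% of all genes were higher and 10.6% lower. In TS cells none was called, where 0.191% of all genes were called. ESM1, an endothelial proteoglycan gene, had 0 reads in both A549 libraries and 2092 to 14458 in the H460 libraries. Between the lines, 2 of the 8 were higher in A549 (CCN4 and IGFBPL1) and 3 lower (ESM1, KAZALD1 and CCN2), where 14.4% of all genes were higher and 9.42% lower.

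Of the other ligands and receptors, IGF1 had at most 7 reads in any library and INS had 0 in all. INSR, the insulin receptor, had an FPKM of 0.198 in its lowest library, parental replicate 1, and was highest in A549 TS cells, with a log2 fold change of 0.76 in drug-resistant cells (SE 0.35, adjusted p = 0.112, edgeR). INSRR, an orphan relative of the insulin receptor, was called higher in drug-resistant cells by 4.62 (SE 1.51, adjusted p = 0.0377, edgeR). It had 26 and 43 reads in PR and 13 in DR cells but 0 in CR and 0, 2 and 0 in parental cells, so this value too averages unlike libraries. IGFALS, the acid-labile subunit that holds IGF and IGFBP3 in serum, had at most 59 reads and was called higher in PR cells by 4.76 (SE 1.07, adjusted p = 0.011, edgeR).

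A list of genes of the IGF2 locus and of IGF2 mRNA-binding proteins separated the lines. It also held HMGA2 of chromosome 12, which belongs to neither. H19, the imprinted noncoding neighbour of IGF2, had 940 reads in 2D and 52796 in TS cells of A549, an FPKM of 5.34 and 279, and at most 6 reads in any H460 library. H19 was higher in TS than in 2D cells by 5.75 (SE 0.40, adjusted p = 0.00518, edgeR), the 1 call among the 5 tested genes of this list. Over all genes 0.147% were higher and 0.0435% lower in that comparison. With H460 at or near 0 reads, the value rests on A549, 1 library against 1. Its SE and p-value therefore do not measure a spread between replicates. IGF2 rose in the same A549 TS library in reads from 221 to 10407, as a description of 1 library against 1. A549 cells were higher for H19 (12.92), IGF2BP1 (7.91), HMGA2 (6.61) and IGF2BP2 (1.83), and lower for IGF2BP3 (-0.84). All 5 tested genes thus differed between the lines, where 14.4% of all genes were higher and 9.42% lower. The H19 value of 12.92 depends on the prior count, because the H460 2D libraries were at 0, and is no estimate of size. In drug-resistant cells HMGA2 alone of 4 tested was called, at 0.99 (SE 0.32, adjusted p = 0.0371, edgeR), with an FPKM of at most 1.04 there. Over all genes 18.5% were higher in that comparison.

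Downstream of the receptors, 19 of 20 listed adapters and PI3K, AKT and FOXO genes were tested. In drug-resistant cells 3 were higher and 2 lower, where 18.5% of all genes were higher and 15.3% lower. Higher were PIK3R3 by 1.51 (SE 0.27, adjusted p = 0.00246), IRS2 by 0.81 (SE 0.28, adjusted p = 0.0465) and IRS1 by 0.73 (SE 0.23, adjusted p = 0.0336, edgeR). Among the lower was AKT1, which fell by 0.70 on the log2 scale (SE 0.16, adjusted p = 0.00839, edgeR), and 14 were not called. In PR cells 1 was higher (PIK3R3, 1.65) and 1 lower (AKT1, -0.76), where 17.5% of all genes were higher and 10.6% lower. In TS cells none of 19 was called, where 0.191% of all genes were called. Between the lines 5 were higher in A549, among them GRB14 (4.61) and GRB10 (2.04), and 3 lower, among them PIK3R1 (-2.48) and SHC1 (-0.89). Over all genes 14.4% were higher in A549 and 9.42% lower.

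The members with the widest range over the 10 libraries were IGFBP4, IGFBP7 and IGFBP1, with an SD of log2(FPKM + 1) of 2.85, 2.46 and 1.90. The genes with the most similar profiles were sought among 4503 expressed and varying genes, by the root-mean-square (RMS) difference of centred log2(FPKM + 1) over the 10 libraries, which share controls and lines. Nearest to IGFBP4 were DKK1 (0.85), ITGA3 (0.97) and TPM2 (1.03). Nearest to IGFBP7 were TMEM59L (0.77), CCN5 (0.81) and OLFML3 (0.84), and nearest to IGFBP1 were CNTN1 (0.65), SEMA3B (0.66) and MALL (0.69). CCN5, also of the related list, had an FPKM of 3.53 to 10.4 in parental, 40.5 to 90.9 in drug-resistant and 1.91 in H460 TS cells, so it ran high and low in the same libraries as IGFBP7. ITGA3 had an FPKM of 1.34 to 2.31 in parental, 27.4 to 53.4 in drug-resistant, 0.63 in H460 TS, and 146 and 139 in A549 2D and TS cells.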

How the data were processed

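Poly(A) RNA of 10 libraries was sequenced. The submitters' processing notes name bcl2fastq 1.8.4, Trimmomatic, HISAT2 2.1.0, StringTie 2.1.3b and GRCh38, without role or order. The authors deposited whole-number read counts for 46427 genes, without normalization. FPKM and TPM values were deposited by the authors, normalized for transcript length and library size, and the TPM was not used further. Each library listed more genes at 2 reads than at 1, so a count may not be 1 independent read, and whether counting used strand is not given in the sources used here. No column of values was left unassigned to a sample.

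The members and gene lists were chosen with earlier results of these data known. Counts were tested with edgeR 4.0.16 (filterByExpr, TMM, glmQLFit, glmQLFTest) in R 4.3.3 over all genes, and p-values were adjusted by Benjamini-Hochberg and called under 0.05. The drug-resistant fit used 7 H460 libraries, the PR fit 5, and the TS, line and interaction fits 6. DESeq2 1.42.0, limma 3.58.1 on log2(FPKM + 1) for genes reaching an FPKM of 1 in 2 or more libraries, upper-quartile scaling, no filter, a replicate block, and leaving out each library were alternatives, as were a pseudocount of 0.1, an FPKM minimum of 1 and single parental controls for the 2-fold counts. The edgeR fits were also run on simulated counts with the same dispersion for every gene, which does not measure their error rates in these libraries. Named are all 10 members, up to 4 called genes of each list and comparison with the largest change, every gene of the list of other ligands and receptors, MKI67 and TOP2A, and the 3 nearest profiles of the 3 members that varied most. CCN1, AKT1, PAPPA, IGF2BP3, the lower-ranked genes of the line comparison and the individual cell type markers were named after their values were seen. Some list genes that the rule would name are not reported here. Tables and figures were made with Python 3.11.15, pandas 2.3.3, numpy 2.4.6 and matplotlib 3.10.9. Replicates of a group differed by a chi-square per gene between 89.6 and 369, so none was counted as a repeat of another.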

Additional observations from a re-analysis of the deposited data

Results flagged for a closer look

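IGFBP3 in DR cells, at an FPKM of 1032, lay apart from the other drug-resistant libraries (1505, 1521 and 1592), its gap to the nearest of them being 0.845 of the range of the 4, past Dixon's 95% limit. About 1 in 20 groups passes that limit by chance. The drug-resistant group remained higher than parental cells for IGFBP3 without DR.

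IGFBP5 was called for a TS effect that differed between the lines (adjusted p = 0.016, edgeR), but not without the filter on low counts (adjusted p = 0.0871, edgeR). The fitted interaction of 14.20 on the log2 scale depends on the prior count and is no estimate of size. All arms but the parental one were 1 library each. The A549 libraries held 0 reads in 2D and 723 in TS cells, and the H460 libraries held 61, 79 and 99 reads in 2D and 21 in TS cells.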

How the results depend on the processing

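Of the alternatives for counts of genes and members called or past 2-fold, 92 stayed within 1.5 times of the reported count and 28 did not. In the PR comparison 3026 genes were called with limma, and leaving out a library gave 950 (without PR replicate 2), 2068 (PR replicate 1), 3570 (parental replicate 2) and up to 6661 genes, and 3 (without PR replicate 2) to 6 members. In the TS comparison DESeq2 called 521 genes and 1 of 9 members, and leaving out a library gave 6 (without parental replicate 2) and 10 (parental replicate 3) to 249 (H460 TS), 320 (A549 2D) and 322 (A549 TS) genes, and 0 to 2 members. Between the lines it gave 2359 (without A549 2D) and 2644 (parental replicate 2) to 3905 genes and 4 to 7 members, the 7 without A549 2D. For the interaction DESeq2 called 539 genes and 3 members, limma 27 and 0, and the fit without a filter 0 and 0, with 1637 genes at an unadjusted p under 0.05. Leaving out a library gave 116, 143 (without parental replicate 2) and 656 genes (parental replicate 1) and 1, 2 and 4 members there. In the drug-resistant comparison counts stayed within 1.5 times, with 4 to 7 members called. Members called without a single library were IGFBP2 (-2.53 without either A549 library), IGFBP5 (12.50) and IGF2 (5.49, both without H460 TS) in the TS comparison. Which property of a left-out library made the difference was not tested.

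Signs reversed for these values, none of them called in the fits reported above. In drug-resistant cells, leaving out a library gave -0.13 to 0.30 for IGFBP6 and -0.38 to 0.47 for IGF2R, which was 0.20 with limma and 0.10 with upper-quartile scaling. In PR cells IGF2R was -0.37 to 0.50 without a library, 0.31 with limma and 0.16 with upper-quartile scaling. In the TS comparison, leaving out a library gave -1.35 to 3.44 for IGFBP1, -2.53 to 0.83 for IGFBP2, -1.03 to 0.67 for IGFBP4 and -1.72 to 12.50 for IGFBP5, and IGFBP4 was -0.057 with limma. Between the lines it gave -0.97 to 2.41 for IGFBP2, -1.28 to 0.19 for IGFBP3 and -9.30 to 4.94 for IGFBP5, which was -1.86 with DESeq2, -0.041 with upper-quartile scaling and -0.0014 with no filter. IGFBP5 was called lower in A549 without H460 TS or A549 TS, and higher without A549 2D.

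Parental and PR libraries share replicate numbers 1 and 2, but with 2 pairs and a correlation of deviations of 0.155 the numbers were not taken as a pairing. With the replicate block 6775 genes and 6 members were called, against 6661 and 6 in the same 4 libraries without it. IGF1R was 1.55 with the block (adjusted p = 0.00423) and without it (adjusted p = 0.00627, edgeR), and IGF2R was 0.54 and 0.50. Depth limited IGF2 and IGFBP5, with under 20 reads for IGF2 in most H460 libraries.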
